A study of Mus musculus with 167 samples.

Results

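The interferon regulatory factors are a family of transcription factors that share a DNA-binding domain. Their transcripts were followed here through fibroblasts, fibroblasts transduced with dendritic cell transcription factors, and splenic dendritic cells. The members are Irf1, Irf2, Irf3, Irf4, Irf5, Irf7, Irf8 and Irf9. They were taken as the 8 rows of the deposited count table, of 57010 identifiers in all, whose Ensembl identifier carries one of these symbols. That rule uses symbols and no measured value, but the members were chosen with earlier results of these data known. Mouse embryonic fibroblasts were the starting cells. C9a.MEF came from embryos homozygous for Clec9a Cre with a Rosa26 tdTomato reporter, so that tdTomato marks cells in which the promoter of Clec9a, a gene of conventional dendritic cells, has been active, and they were sorted as negative for tdTomato and CD45. hCD2.MEF came from embryos heterozygous for hCD2 Cre with a Rosa26 YFP reporter. Lentivirus brought in 1 of 3 factor combinations: PIB (Pu.1, Irf8 and Batf3) or PIP (Pu.1, Irf4 and Prdm1) in C9a fibroblasts, and SII (Spib, Irf8 and Ikzf2) in both lines (C9a.SII and hCD2.SII). Transduced cells were collected on day 3, 6 or 9 as reporter positive, CD45 positive or double positive, and splenic cDC1 and cDC2 (conventional dendritic cells of type 1 and 2) and pDC (plasmacytoid dendritic cells) came from wildtype mice. The libraries fell into 41 groups of 3 to 5. Irf8 in PIB and SII cells and Irf4 in PIP cells sum transgene and endogenous reads.

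Interferon regulatory factors read the state of innate immunity. Sensors of foreign nucleic acid signal through kinases that phosphorylate Irf3, Irf5 and Irf7, which then switch on interferon and cytokine genes. Secreted interferon acts through receptors and Jak kinases on Stat proteins, which join Irf9 in the complex ISGF3, which binds the promoters of interferon-stimulated genes, Irf7 among them. Irf4 and Irf8 bind DNA weakly alone and pair with partners such as Pu.1, Spib or Batf proteins. Irf8 is required for cDC1 and supports pDC, and Irf4 supports cDC2.

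The promoters of some members whose transcripts moved in these comparisons, or that carry several motifs, are printed below with matches to motifs of these circuits. All 8 members matched the RefSeq promoter table (GRCm38.p6, 250 bases before to 50 after each start), with 11 of its 32851 entries. Motifs were searched on both strands, and capitals mark each match. GAAA, any 2 bases and GAAA form a core of the interferon-stimulated response element that ISGF3 and the family bind. TTCNNNGAA is the site of Stat dimers. GGAA, any 2 bases and GAAA form the composite site of Pu.1 or Spib with Irf4 or Irf8. GGGAANNCC is a site of NF-kappaB, and GAGGAA is a site of Pu.1. The runs below end at or before the base preceding the annotated transcript.
Irf1, chr11:53769764-53770013, plus strand: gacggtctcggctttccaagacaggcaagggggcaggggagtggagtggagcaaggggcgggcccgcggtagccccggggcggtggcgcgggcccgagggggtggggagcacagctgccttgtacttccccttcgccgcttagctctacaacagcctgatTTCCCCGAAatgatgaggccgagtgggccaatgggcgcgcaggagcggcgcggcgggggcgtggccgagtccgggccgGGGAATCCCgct
Irf2, chr8:46739495-46739731, plus strand: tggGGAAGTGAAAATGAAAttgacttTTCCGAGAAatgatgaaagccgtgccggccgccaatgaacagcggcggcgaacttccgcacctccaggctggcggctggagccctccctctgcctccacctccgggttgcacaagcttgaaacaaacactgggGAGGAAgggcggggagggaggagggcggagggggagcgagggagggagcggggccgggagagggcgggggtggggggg
Irf5, chr6:29526375-29526624, plus strand: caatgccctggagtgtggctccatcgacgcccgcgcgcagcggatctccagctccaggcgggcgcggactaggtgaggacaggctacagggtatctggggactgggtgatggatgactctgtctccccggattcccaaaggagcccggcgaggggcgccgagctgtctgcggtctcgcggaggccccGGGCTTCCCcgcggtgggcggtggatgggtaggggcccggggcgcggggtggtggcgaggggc
Irf8, chr8:120736108-120736357, plus strand: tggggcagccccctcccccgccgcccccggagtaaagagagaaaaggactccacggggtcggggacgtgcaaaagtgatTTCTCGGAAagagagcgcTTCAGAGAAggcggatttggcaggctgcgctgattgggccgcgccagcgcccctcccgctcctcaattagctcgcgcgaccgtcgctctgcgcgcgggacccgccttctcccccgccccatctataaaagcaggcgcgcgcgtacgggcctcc

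In Irf1 the Stat site TTCCCCGAA began at -90 and the NF-kappaB site GGGAATCCC at -12 from the start. Irf2 held the interferon-stimulated core GAAAATGAAA at -241, overlapping the composite site at -247, a Stat site at -224 and a Pu.1 site at -91. Irf5 held 1 NF-kappaB site, at -63. Irf8 held a pair of Stat sites, at -171 and -153. Its other start, at chr8:120738639, whose window is not printed, held an NF-kappaB site at -246. The window of Irf7 held none of the 5 motifs. The interferon-stimulated core stood in 1 of the 11 member promoters and in 3.44% of all promoters. The Stat site stood in 3 of 11 and in 8.30% of all, the composite site in 1 of 11 and 2.72%, the NF-kappaB site in 4 of 11 and 5.82%, and the Pu.1 site in 4 of 11 and 28.3%. A match describes the letters in this window and is not evidence of binding.

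The annotation (GENCODE M21, GRCm38) places Irf1 at chr11:53770014-53778374, Irf2 at chr8:46739732-46847458, Irf3 at chr7:44997648-45002848, Irf4 at chr13:30749226-30766976, Irf5 at chr6:29526625-29541871, Irf8 at chr8:120736358-120756694 and Irf9 at chr14:55603571-55610030, all on the plus strand, and Irf7 at chr7:141262706-141266481 on the minus strand. Exons of 5 members overlap an exon of another gene. Tnpo3 shares 411 bases with Irf5 on the opposite strand, Gm17334, Bcl2l12 and Phrf1 overlap Irf1, Irf3 and Irf7 over fewer bases, also on the opposite strand, and Rnf31 overlaps Irf9 on the same strand. The strand setting of the counting is not given, so reads in those bases cannot be assigned with certainty. Tnpo3 had mean levels of 63.5 CPM in C9a.MEF, 57.7 in PIB, 43.5 in PIP and 52.2 in C9a.SII double positive cells of day 9, and these 4 means differ by less than those of Irf5 below.

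Total counts ran from 1146927 to 21976374 per library, and CPM are counts per 1000000 counts of that total. A count of 0 allowed a level of up to 0.136 CPM in the deepest and 2.62 CPM in the shallowest library, counting error only. A gene was called, or said to rise or fall, if its change reached 2-fold with an adjusted p under 0.05 in edgeR, and log2 changes carry standard errors. The labels do not say whether libraries of a group came from separate cultures or animals, so the p-values measure the spread between these libraries. The fibroblast markers (8 genes, Col1a1, Col1a2, Pdgfra and others) summed to 14331 to 15490 CPM in C9a.MEF and 12973 to 15019 in hCD2.MEF, where the 4 leukocyte markers including Ptprc summed to under 3 CPM. They still summed to 5839 to 7322 CPM in PIB and 988 to 1275 CPM in PIP double positive cells of day 9. In bulk RNA fewer cells with a transcript and less of it per cell cannot be told apart. Several libraries stood apart. pDC replicate 1 had 1165 CPM of fibroblast markers, against 20.1 to 97.5 in the other pDC libraries, and 2498 CPM of the 8 pDC markers against 4880 to 7374. hCD2.SII double positive replicate 1 of day 9 had 6869 CPM of fibroblast markers against 617 and 551, C9a.SII double positive replicate 1 of day 9 had 1146927 counts and 2134 CPM of the 7 macrophage markers against 65.8 to 221, and PIP double positive replicate 3 of day 3 had 34.6 CPM of leukocyte markers against 191 and 194. In 3 further libraries an IRF named in the label was at under 5 CPM. The library labelled PIB d6 tdT+ replicate 4 had 539 CPM of Irf4 and 1.99 CPM of Irf8. The library labelled PIP d3 tdT+ replicate 5 had 3.94 CPM of Irf4 and 211 CPM of Irf8, and the library labelled C9a.SII d6 tdT+ replicate 5 had 658 CPM of Irf4 and 0.912 CPM of Irf8. None of these 3 entered a comparison between groups, other than 1 fit over all groups.

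Irf8, the member put in by PIB and SII, was near absent from fibroblasts and high in cells given those combinations. The 4 C9a.MEF libraries had 0.547, 1.25, 1.56 and 1.00 CPM. PIB double positive cells of day 9 had 120.2, 143.8, 154.4, 149.2 and 272 CPM, and C9a.SII cells 245, 178, 156.9 and 177 CPM. Groups with an Irf8 transgene lay wholly above the fibroblasts, and PIB replicate 5 and C9a.SII replicate 1 lay above the rest of their groups. Irf8 rose by 7.30 ± 0.37 (adjusted p 3.04e-07, n = 5 against 4) in PIB, by 7.54 ± 0.34 in C9a.SII (adjusted p 2.88e-07) and by 8.85 ± 0.58 in hCD2.SII against hCD2.MEF (adjusted p 1.80e-04), on the log2 scale by edgeR. In hCD2.SII cells replicate 1 had 128.4 CPM and the others 320.4 and 320.2 CPM. PIB replicate 5 was also the highest in that group for the other factors delivered, with 275 CPM of Spi1, the gene of Pu.1, against 157.2 to 176 in the other libraries.

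PIP cells received no Irf8. Apart from the library that goes against its label, the highest level in a PIP library was 12.4 CPM, in PIP d6 CD45+ replicate 4. The 4 double positive libraries of day 9 had 2.69, 1.97, 2.52 and 1.095 CPM of Irf8, from 12 to 35 counts each, a range that overlapped that of C9a.MEF. The change of 1.16 ± 0.36 passed the test (adjusted p 0.00956), but fell to 0.94 without C9a.MEF replicate 1 and to 0.99 without PIP replicate 1, both under 2-fold, and had an adjusted p of 0.373 in a fit over all groups. At day 3 it was 1.41 ± 0.42 (adjusted p 0.0238), and adjusted p passed 0.05 without C9a.MEF replicate 1, C9a.MEF replicate 4 or PIP replicate 1 (0.0548, 0.0630 and 0.0501).

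Irf4, the member put in by PIP, was low elsewhere in the transduced cells. Over all days and gates it reached 1.67 CPM in PIB, 2.85 in C9a.SII and 5.98 in hCD2.SII. The libraries that go against their label are left out of these values. PIP double positive cells of day 9 had 333, 379, 344 and 401 CPM, and C9a.MEF had 0.0919 to 0.308 CPM, from 1 to 4 counts a library. The log2 change was 10.86 ± 0.11 (adjusted p 7.47e-20), and rests on those few fibroblast counts. PIB cells had 0.112 to 0.429 CPM of Irf4, and C9a.SII cells 0.857 to 1.74 CPM, too few counts for a test against fibroblasts.

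**Figure D1:**
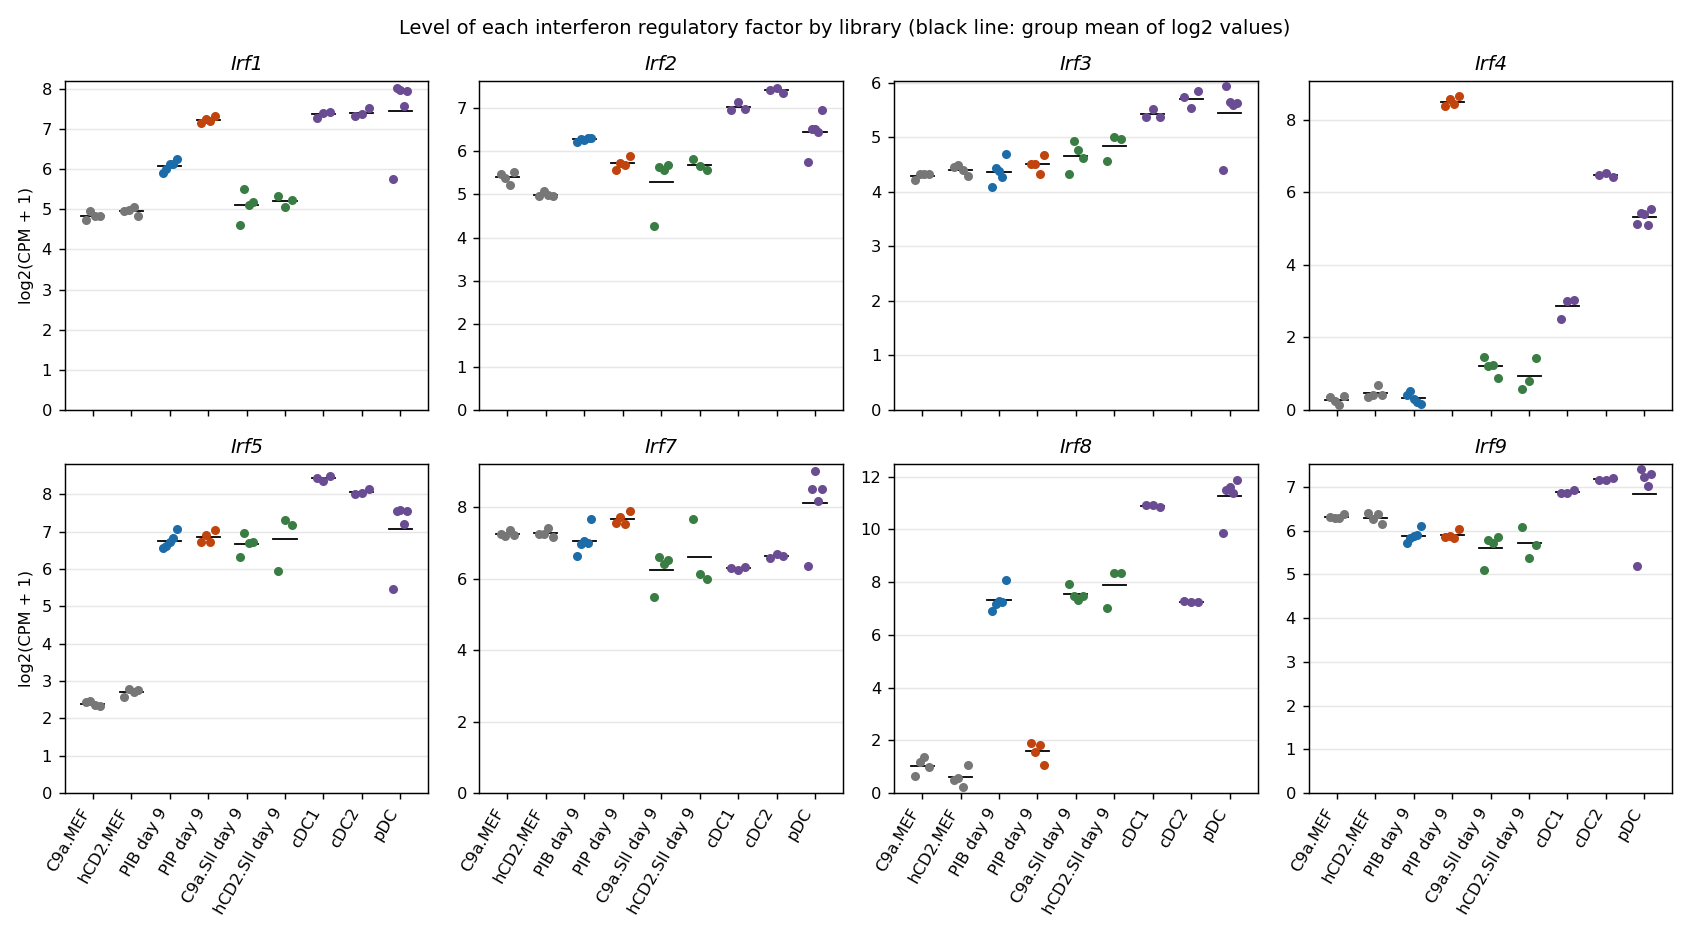
Level of each interferon regulatory factor, as log2(CPM + 1), in every library of the fibroblast, day 9 double positive and splenic groups, with 1 point a library and a black line at the group mean of the log2 values. Irf5 separates both fibroblast lines from all other groups, and pDC replicate 1 lies below the other pDC libraries for 7 members, Irf4 being the exception.

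Irf5, the factor downstream of Toll-like receptors and Myd88 that drives inflammatory cytokine genes, rose in cells of every combination although no vector carried it. It had 4.38, 4.55, 4.14 and 4.01 CPM in C9a.MEF and 4.95 to 5.84 CPM in hCD2.MEF. At day 9 PIB double positive cells had 92.8, 96.7, 105.2, 112.98 and 132.5 CPM. PIP cells had 104.8, 118.7, 105.4 and 130.3 CPM, and C9a.SII cells 78.5, 123.8, 103.4 and 104.7 CPM. No transduced library overlapped a fibroblast library, while the 3 transduced groups overlapped one another. The log2 change against C9a.MEF was 4.72 ± 0.10 in PIB (adjusted p 1.19e-12), 4.97 ± 0.08 in PIP (adjusted p 6.08e-18) and 4.68 ± 0.10 in C9a.SII (adjusted p 5.91e-10). In hCD2.SII it was 4.43 ± 0.34 against hCD2.MEF (adjusted p 2.00e-04), with 60.2 CPM in replicate 1 and 157.003 and 143.2 CPM in the others. The comparisons of PIB, PIP and C9a.SII share the C9a.MEF libraries, so they are set side by side and not counted as separate evidence.

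The rise of Irf5 was there by day 3, at 4.31 ± 0.08 in PIB, 4.18 ± 0.12 in PIP, 3.96 ± 0.12 in C9a.SII and 3.66 ± 0.20 in hCD2.SII on the log2 scale, each with an adjusted p of at most 3.36e-07 (edgeR). Between days 3 and 9 it changed by 0.38 ± 0.08 in PIB and 0.78 ± 0.11 in PIP, which passed the adjusted p (0.00409 and 0.00244) but not 2-fold. Splenic dendritic cells had more still. cDC1 had 343, 323 and 359 CPM, cDC2 254, 261 and 281 CPM, and pDC 42.98, 185, 191, 145.04 and 185 CPM. The splenic conventional groups lay above every transduced library, and pDC replicate 1 lay within the transduced range. Irf5 was lower in PIB cells than in cDC1 by 1.37 ± 0.10 (adjusted p 7.97e-09) and in PIP cells than in cDC2 by 1.04 ± 0.09 (adjusted p 1.73e-08), the latter under 2-fold without cDC2 replicate 3 (0.93), PIP replicate 1 or PIP replicate 3 (both 0.99).

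Irf1, an activator of antigen presentation genes that interferon gamma induces, separated the combinations. C9a.MEF had 25.7, 29.9955, 27.4 and 27.4 CPM. At day 9 PIP double positive cells had 141.99, 151.6, 147.8 and 160.7 CPM, PIB cells 58.6, 63.2, 69.7, 68.7 and 75.9 CPM, and C9a.SII cells 23.5, 44.8, 33.3 and 35.6 CPM. PIP libraries lay above all PIB libraries, and these above all C9a.SII libraries, whose range overlapped that of the fibroblasts. Against C9a.MEF Irf1 rose by 2.67 ± 0.06 in PIP (adjusted p 1.91e-16) and by 1.34 ± 0.07 in PIB (adjusted p 2.17e-09). In C9a.SII the change was 0.43 ± 0.12 (adjusted p 0.0112), under 2-fold, and in hCD2.SII it was 0.25 ± 0.12 (adjusted p 0.120). At day 3 the values were 2.40 ± 0.27 in PIP and 1.40 ± 0.07 in PIB. In PIP of day 3 replicate 3, the library low in leukocyte markers, had 80.6 CPM of Irf1 against 160.8 and 158.002 CPM. In spleen cDC1 had 153.8 to 172 CPM, cDC2 160.7 to 182 CPM and pDC 53.3 to 261 CPM, so that PIP cells and cDC2 overlapped (log2 difference 0.00 ± 0.08, adjusted p 0.988).

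Irf7, which drives type I interferon genes and is itself interferon-stimulated, was already expressed in fibroblasts, at 151.6, 144.4, 162.6 and 149.3 CPM in C9a.MEF. PIP double positive cells had 344, 360.0 and 290 CPM at day 3 and 188, 209, 185 and 237 CPM at day 9. C9a.SII cells of day 9 had 43.6, 96.9, 83.5 and 91.6 CPM, and PIB cells 98.3, 125.4, 132.1, 126.4 and 204 CPM. PIP libraries lay above the fibroblasts on both days, C9a.SII libraries of day 9 lay below them, and of the PIB libraries 4 lay below them and replicate 5 above. Irf7 rose by 1.24 ± 0.12 in PIP at day 3 (adjusted p 8.89e-05). At day 9 its log2 difference from C9a.MEF was 0.65 ± 0.06 in PIP (adjusted p 4.17e-08) and -0.86 ± 0.14 in C9a.SII (adjusted p 6.02e-04), both past the adjusted p and under 2-fold, and -0.10 ± 0.16 in PIB (adjusted p 0.624). Without PIB replicate 5 the last was -0.26 ± 0.07 (adjusted p 0.00540), still under 2-fold.

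In hCD2.SII double positive cells of day 9 the libraries disagreed on Irf7, with 202 CPM in replicate 1, the library rich in fibroblast markers, and 68.9 and 62.9 CPM in the others. The fibroblasts of that line had 141.6 to 171 CPM. With all 3 libraries the log2 difference was -0.47 ± 0.41 (adjusted p 0.388). Without replicate 1 it was -1.29 ± 0.10 (adjusted p 1.40e-07), and 3 members rather than 2 were called. The 2 stood beside 19.2% of all genes called. That share also moved when libraries were left out, as given in the last section. The part of fibroblast RNA in this was not tested. C9a.SII cells of day 3 were as uneven, with 183, 38.9, 122.4 and 371 CPM.

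The fibroblast lines themselves differed in 0 members (2.93% of all genes called by edgeR, 0 members by DESeq2, 2 members at an unadjusted p under 0.05), with Irf2 lower in hCD2.MEF by 0.39 ± 0.08 (adjusted p 0.00223). Without hCD2.MEF replicate 4, Irf8 fell by 1.52 between the lines (adjusted p 0.0404), against a difference of -0.97 ± 0.48 with it (adjusted p 0.169), at means of 0.551 TMM-scaled CPM in hCD2.MEF and 1.08 in C9a.MEF.

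Irf9, the DNA-binding subunit of ISGF3, was lower in every combination than in fibroblasts, by less than 2-fold. C9a.MEF had 76.6 to 82.8 CPM. The day 9 double positive cells had 51.2 to 67.4 CPM in PIB, 56.2 to 64.9 in PIP, 33.1 to 57.2 in C9a.SII and 40.7 to 66.3 in hCD2.SII. None overlapped the fibroblasts of its line. The log2 differences were -0.38 ± 0.06, -0.19 ± 0.05, -0.58 ± 0.09 and -0.58 ± 0.16 in that order, with adjusted p of 1.04e-04, 0.00452, 3.51e-04 and 0.0227 (edgeR). Rnf31, which overlaps Irf9 on the same strand, had mean levels of 31.7 CPM in C9a.MEF, 43.4 in PIB, 59.4 in PIP and 40.4 in C9a.SII, and 38.5 in hCD2.MEF and 39.8 in hCD2.SII. The part of its reads in the counts of Irf9 was not tested.

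Irf2, which opposes Irf1 on many promoters, was higher by 0.96 ± 0.06 in PIB (adjusted p 2.63e-08), 0.55 ± 0.07 in PIP (adjusted p 2.81e-06) and 0.70 ± 0.10 in hCD2.SII (adjusted p 0.00183) at day 9, all under 2-fold, and C9a.SII differed by 0.13 ± 0.17 (adjusted p 0.567). PIB cells had 73.6 to 78.96 CPM against 36.2 to 44.6 CPM in C9a.MEF, with no overlap. Irf3, the constitutive factor that kinases of the nucleic acid sensors phosphorylate, was called in none of the comparisons with fibroblasts. Its day 9 log2 differences were 0.14 ± 0.10 in PIB, 0.45 ± 0.08 in PIP, 0.51 ± 0.10 in C9a.SII and 0.46 ± 0.15 in hCD2.SII, with levels of 16.003 to 31.4 CPM in all those cells and 17.7 to 21.6 CPM in fibroblasts.

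Counted over the family, 3 members were called against fibroblasts at day 9 in PIB (Irf1, Irf5 and Irf8), where 21.8% of all tested genes were called. The count was 4 in PIP (Irf1, Irf4, Irf5 and Irf8) beside 29.6% of all genes, 2 in C9a.SII (Irf5 and Irf8) beside 21.4%, and the same 2 symbols in hCD2.SII beside 19.2%. All were higher. At day 3 there were 3 in PIB (22.8% of all genes), 5 in PIP (21.8%), 2 in C9a.SII (17.6%) and 2 in hCD2.SII (24.1%). Irf4 was tested in the PIP comparisons and in none of the others with fibroblasts, so these counts are of 8 tested members in PIP and of 7 elsewhere. With transgenes set aside, Irf5 is the member called in all 8. The median log2 change over the tested members at day 9 was 0.96 in PIB, 0.90 in PIP, 0.43 in C9a.SII and 0.46 in hCD2.SII, and that of all tested genes lay between 0.00 and 0.05. The member medians include the transgenes, Irf8 in PIB and SII and Irf4 in PIP, so they do not describe endogenous transcripts alone.

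**Figure D2:**
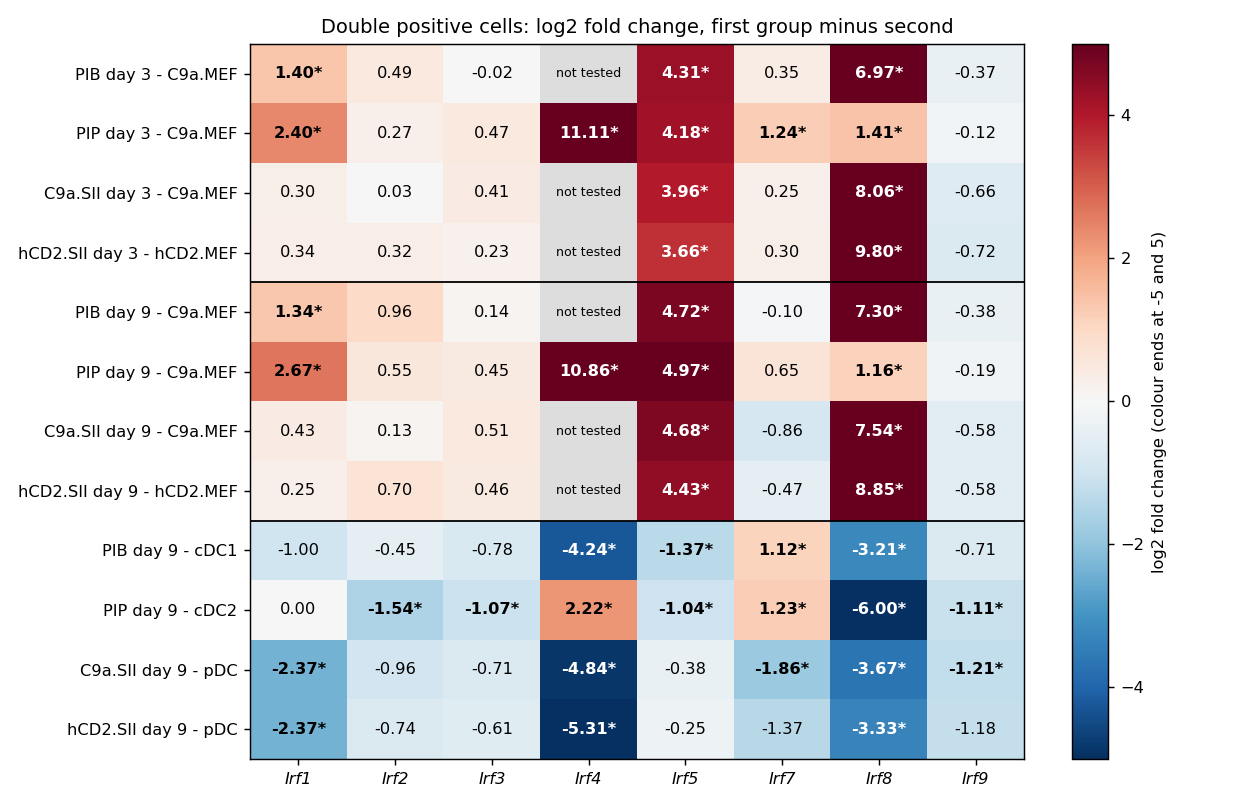
Log2 fold change of each member (columns) in each comparison of double positive cells (rows), coloured by size and direction, with a star on each called change. Irf5 is starred in all 8 comparisons with fibroblasts, and Irf3 in 1 comparison, that of PIP cells with cDC2, where its difference of -1.07 was -0.93 without cDC2 replicate 3.

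The 3 combinations in the C9a line were also set against each other at day 9. PIB and PIP differed in 3 members, beside 21.6% of all genes: Irf1 was lower in PIB by 1.30 ± 0.06 on the log2 scale (adjusted p 9.71e-10), and the rest were the transgenes Irf4 and Irf8. PIP and C9a.SII differed in 4 members, beside 22.5% of all genes. Irf1 was higher in PIP by 2.25 ± 0.12 (adjusted p 9.27e-08) and Irf7 by 1.51 ± 0.16 (adjusted p 1.75e-05), and again the transgenes made up the rest. PIB and C9a.SII, which both deliver Irf8, differed in 0 members beside 18.5% of all genes by edgeR, and in 0 by DESeq2. Of the 7 members tested 4 had an unadjusted p under 0.05, and the largest difference, that of Irf1, was 0.92 ± 0.11 (adjusted p 4.92e-05), or 1.05 without C9a.SII replicate 2. Irf8 itself differed by -0.24 ± 0.25 between them (adjusted p 0.479), and Irf5 by 0.04 ± 0.10 (adjusted p 0.779).

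Between days 3 and 9 in double positive cells 0 members were called under any combination, where 12.1% of all genes were called in PIB, 6.21% in PIP, 0.103% in C9a.SII and 6.55% in hCD2.SII. DESeq2 called 0 as well, and 3, 3, 1 and 3 members had an unadjusted p under 0.05 in that order. The log2 differences of Irf7 were -0.48 ± 0.17 in PIB (adjusted p 0.0507), -0.59 ± 0.12 in PIP (adjusted p 0.0148), -1.10 ± 0.55 in C9a.SII (adjusted p 0.557) and -0.72 ± 0.45 in hCD2.SII (adjusted p 0.352). Without hCD2.SII replicate 1 of day 9, Irf7 fell by 1.51 ± 0.25 (adjusted p 0.00408) and Irf5 rose by 1.11 ± 0.21 (adjusted p 0.00669) in that line. The interaction of combination and day, PIP minus PIB, called 0 members by edgeR and by DESeq2, beside 10.6% of all genes, with 1 member at an unadjusted p under 0.05. Without PIB replicate 1 of day 3 it called Irf4, the transgene of PIP, at 1.55 (adjusted p 0.0469), against 1.14 ± 0.55 with it (adjusted p 0.147). The difference between lines in the day 9 change under SII also called 0 by both, beside 0.568% of all genes, with 1 at an unadjusted p under 0.05, and that of Irf8 was 1.34 ± 0.66 (adjusted p 0.397).

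**Figure D3:**
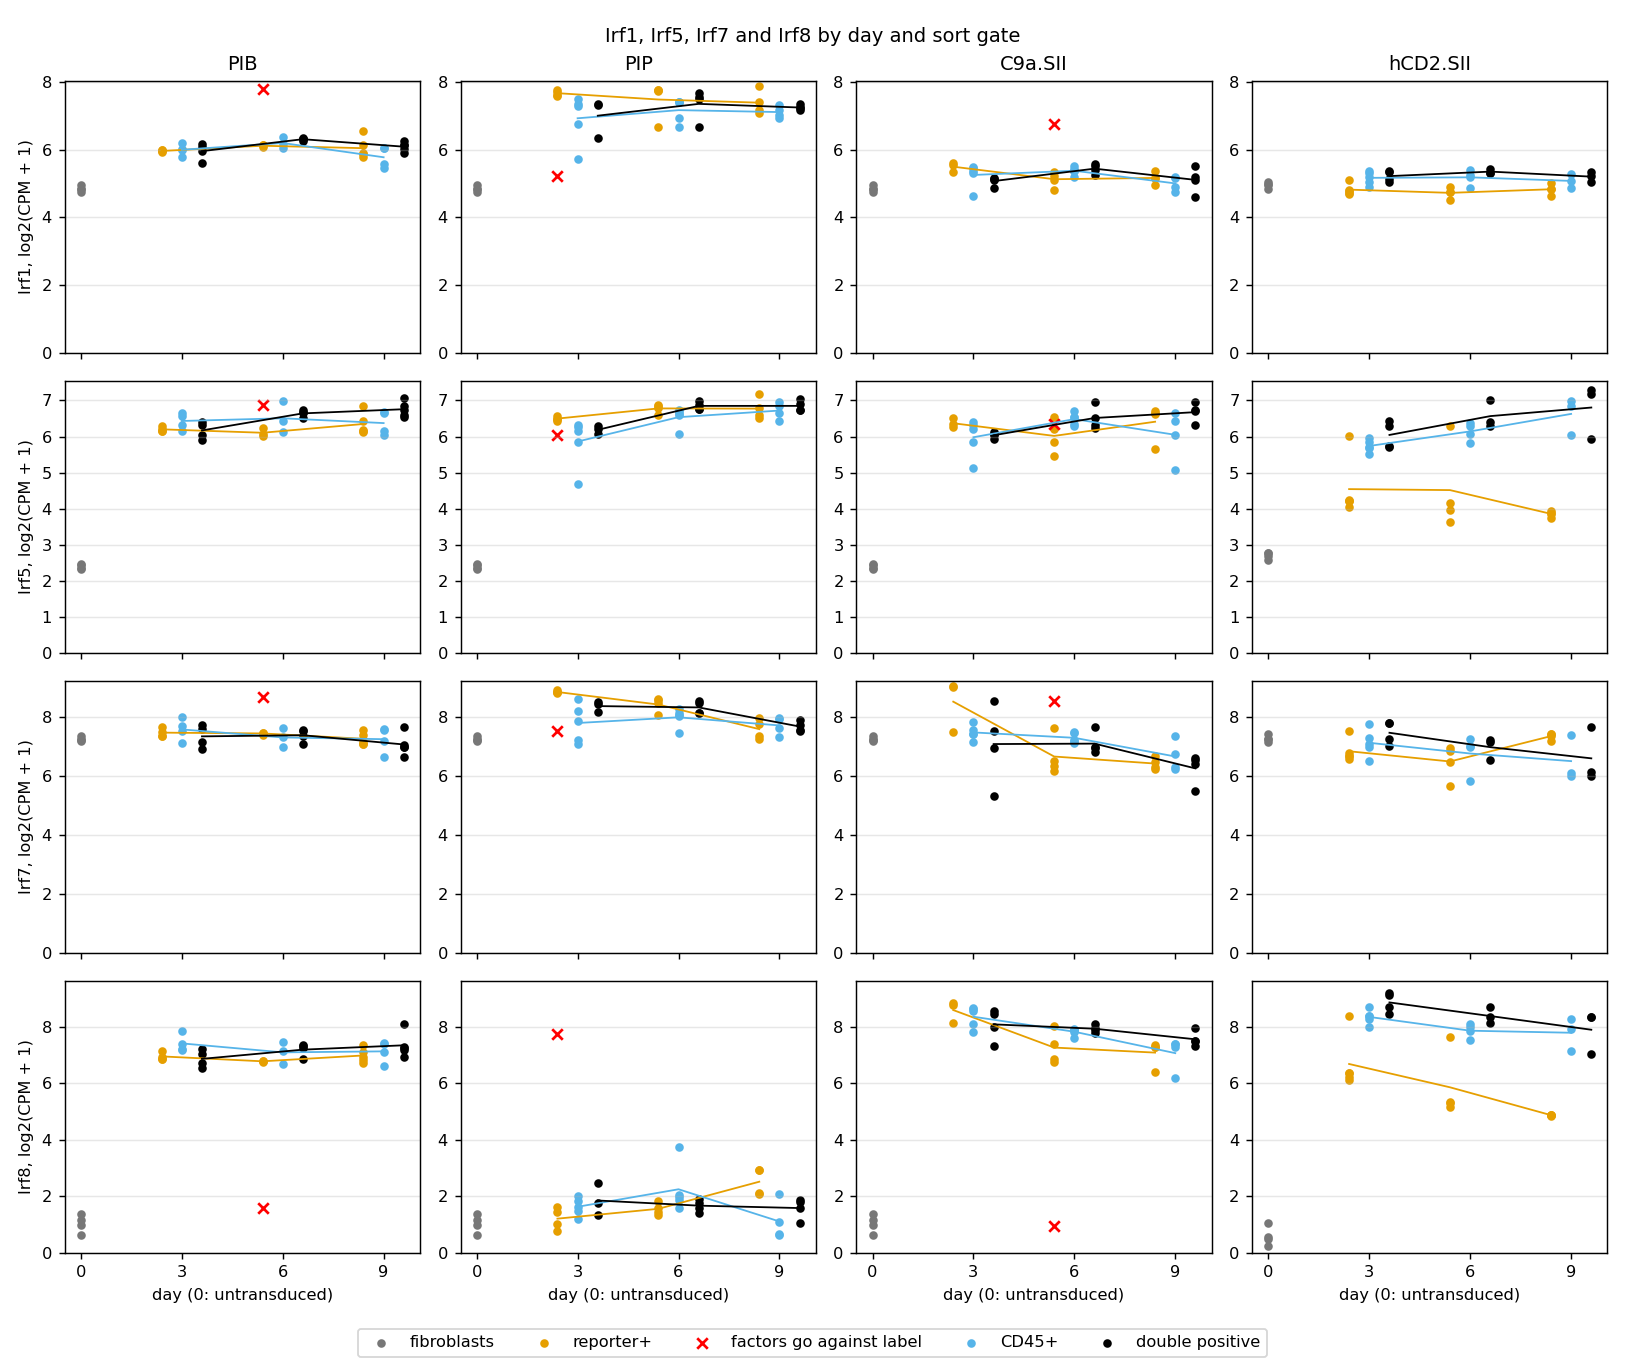
Level of Irf1, Irf5, Irf7 and Irf8 (rows), as log2(CPM + 1), by day in the 4 transduced preparations (columns), with 1 point a library, lines through group means, points shifted sideways by sort gate, fibroblasts at day 0 and a red cross for the 3 libraries that go against their label. Irf5 lies above the fibroblast level on all days, least so in reporter-gated hCD2.SII cells, where the day 9 libraries had 12.4 to 14.3 CPM.

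The sort gate was compared within day 9. Double positive cells of day 9 set against reporter-gated cells gave 0 called members in PIB (1.7% of all genes called), PIP (0.0122%) and C9a.SII (0.148%) by edgeR, 0 in each by DESeq2, and 2, 1 and 1 members at an unadjusted p under 0.05. In hCD2.SII 2 members were called, beside 12.2% of all genes. Irf5 was 13.4, 12.4, 14.3 and 13.8 CPM in the YFP+ libraries, and higher in double positive cells by 3.16 ± 0.32 (adjusted p 0.00158). Irf8 was 28.3, 28.4, 27.9 and 28.4 CPM in YFP+ cells, and higher in double positive cells by 3.19 ± 0.31 (adjusted p 0.00139). The YFP+ libraries lay above all hCD2.MEF libraries and below all double positive ones for both members. The summed leukocyte markers moved with both members, at 4.95 to 7.86 CPM in YFP+ and 134.7 to 420 CPM in double positive libraries, and their part in the result was not tested. Without replicate 1 the differences were 3.43 and 3.46.

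In spleen the subsets differed most in Irf8 and Irf4. Irf8 was 1932, 1921 and 1861 CPM in cDC1, 154.01, 149.7 and 150.3 CPM in cDC2, and 918, 2919, 3154, 2669 and 3786 CPM in pDC. Irf4 was 4.73, 7.03 and 7.26 CPM in cDC1, 88.5, 92.1 and 84.4 CPM in cDC2, and 34.3, 42.5, 41.1, 33.6 and 45.9 CPM in pDC. The 3 subsets did not overlap in Irf4, and cDC2 lay below all others in Irf8. Between cDC1 and cDC2 2 members were called, beside 34.8% of all genes: Irf8 was higher in cDC1 by 3.67 ± 0.08 (adjusted p 1.50e-20) and Irf4 lower by 3.80 ± 0.15 (adjusted p 7.68e-16). The other members differed by under 0.39 in size on the log2 scale.

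pDC stood out by Irf7. It was 80.5, 362, 520.5, 289 and 366 CPM in pDC, 77.5, 74.3 and 79.7 CPM in cDC1, and 93.96, 102.9 and 98.3 CPM in cDC2. All pDC libraries but replicate 1 lay above both other subsets. Irf7 was higher in pDC than in cDC1 by 2.00 ± 0.50 (adjusted p 0.0154) and than in cDC2 by 1.56 ± 0.46 (adjusted p 0.0223) with all libraries, and by 2.25 ± 0.19 (adjusted p 3.28e-07) and 1.83 ± 0.18 (adjusted p 1.41e-06) without replicate 1. Leaving out any 1 of the cDC1 or cDC2 libraries in place of it took the adjusted p to between 0.0847 and 0.0993. Irf7 and Irf4 were the 2 members called between cDC1 and pDC, beside 15.8% of all genes. Irf5 was higher in cDC1 by 1.24 ± 0.42 (adjusted p 0.0668), and was called without pDC replicate 1 (1.00, adjusted p 2.78e-04), without pDC replicate 5 (1.40, adjusted p 0.0419) and by DESeq2's Wald test (1.28, adjusted p 0.0152). Between cDC2 and pDC there were 4, Irf2, Irf4, Irf7 and Irf8, beside 34.9%. Irf2 was higher in cDC2 by 1.04 ± 0.28 (adjusted p 0.0166), and the call was lost without pDC replicate 1, 2 or 3 (0.90, 0.95 and 0.94, under 2-fold) and without any 1 of the cDC2 libraries (adjusted p 0.0595 to 0.0661). Irf5 was higher there by 0.96 ± 0.39 (adjusted p 0.0697), and by 1.05 (adjusted p 0.0489) without pDC replicate 5.

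Each combination was also set against a splenic subset, PIB against cDC1, PIP against cDC2 and SII against pDC. PIB cells differed from cDC1 in 4 members, beside 57.5% of all genes: Irf4, Irf5 and Irf8 were lower and Irf7 higher. Irf1 was lower by 0.996 ± 0.08 (adjusted p 3.79e-08), just under 2-fold, and was called without PIB replicate 2, 3 or 4 (1.02 to 1.05) and by DESeq2's Wald test (1.06). Irf8 was lower by 3.21 ± 0.23 (adjusted p 2.99e-06) with the transgene counted in. Irf7 was higher by 1.12 ± 0.19 (adjusted p 3.47e-04), and by 0.99 without PIB replicate 5. PIP cells differed from cDC2 in 7 members, beside 56% of all genes, with Irf1 as the exception. Irf3 and Irf5 were the closest to the threshold. Irf3 was lower by 1.07 ± 0.11 (adjusted p 3.17e-07), and by 0.93 without cDC2 replicate 3 and 0.99 in 1 fit over all groups, both under 2-fold, and the call of Irf5 was lost without cDC2 replicate 3, PIP replicate 1 or PIP replicate 3, as given above. Irf4 was higher in PIP by 2.22 ± 0.08 (adjusted p 5.80e-13) and Irf7 by 1.23 ± 0.09 (adjusted p 3.39e-09), and Irf8 was lower by 6.00 ± 0.17 (adjusted p 2.86e-13). C9a.SII cells were lower than pDC in 5 members, Irf1, Irf4, Irf7, Irf8 and Irf9, beside 38.2% of all genes. Irf9 there was lower by 1.21 ± 0.36 (adjusted p 0.0185), and by 1.04 (adjusted p 0.0629) without C9a.SII replicate 1. Irf2 was lower by 0.96 ± 0.31 (adjusted p 0.0265), under 2-fold, and was called without pDC replicate 1 (1.12, adjusted p 0.00552), pDC replicate 2, pDC replicate 3 or C9a.SII replicate 4 (each 1.07) and by DESeq2's Wald test (1.01). hCD2.SII cells were lower in 3, Irf1, Irf4 and Irf8, beside 33%, and in 5 without pDC replicate 1, when Irf7 and Irf9 were called as well. The 33% is the share with all libraries, and it also moved when libraries were left out, as given in the last section. Irf7 was also called without hCD2.SII replicate 1 (2.21 lower, adjusted p 0.0311). Irf1 was lower by 2.37 ± 0.39 in C9a.SII (adjusted p 6.38e-04) and by 2.37 ± 0.47 in hCD2.SII (adjusted p 0.00361).

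Levels were also divided by the kilobases of annotated exon, over the exons of all transcripts together. Irf7 led the family in C9a.MEF at 40.3 CPM per kb, ahead of Irf9 at 14.6. These lengths can exceed that of a transcript. The exons of Irf7 form 1 block of 3776 bases, and those of Irf8 sum to 7055 bases. Transgene reads of Irf4 and Irf8 were divided by the same lengths, so the order of members is approximate. At day 9 the transgene Irf4 led in PIP at 74.3 CPM per kb, with Irf7 at 54.2, Irf5 at 39.5 and Irf1 at 37.9. In PIB Irf5 (37.2) and Irf7 (36.3) led with overlapping ranges, and in C9a.SII Irf5 (35.3) led Irf8 (26.8), again with overlapping ranges. Irf8 led in cDC1 at 269.9 and in pDC at 381 CPM per kb, and Irf5 led in cDC2 at 91.3. In pDC the ranges of Irf8 and Irf7 overlapped through replicate 1.

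Over all 41 groups, 6 of the 8 members had their highest mean level in spleen, or 5 with TMM-scaled levels and 5 without the 3 libraries that go against their label. Irf1 was highest in pDC (200.1 CPM), followed by PIP d6 tdT+ (186 CPM), but PIP d3 tdT+ lay above both at 202.2 ± 11.6 CPM (SD, n = 4) without the library that goes against its label, which had 36.6 CPM. Irf1 was lowest in hCD2.SII d6 YFP+ (25.6 CPM), and each of the 40 pairs of neighbours in the order overlapped. Irf2 was highest in cDC2 (170.1 CPM), then cDC1 (129.9) and pDC (88.9), and lowest in hCD2.MEF (30.9), with 2 pairs of neighbours apart. Irf5 ran from cDC1 (342) and cDC2 (265) through pDC (149.7) and hCD2.SII double positive cells of day 9 (120.1) to hCD2.SII d9 YFP+ (13.5), hCD2.MEF (5.52) and C9a.MEF (4.27), with 5 pairs apart: the first and second, the second and the third, and the last 3 steps of the order. Irf8 ran from pDC (2689) and cDC1 (1904) to hCD2.SII double positive cells of day 3 (472) and, last, hCD2.MEF (0.543), with 2 pairs apart. Irf4 was highest in PIP d3 tdT+ (523 CPM with the library that goes against its label), and Irf9 ran from cDC2 (143.5) to hCD2.SII double positive cells of day 3 (45.3), and the only gap in its order lay between cDC1 (116.7) and C9a.MEF (78.6). Irf3 ran from cDC2 (51.7) to PIB double positive cells of day 3 (15.7). Irf7, which no vector carried, had its highest means in transduced cells, at 409 CPM in C9a.SII d3 tdT+ and 404 CPM in PIP d3 tdT+, or 459.8 ± 16.1 (SD, n = 4) in the latter without the library that goes against its label, and its lowest mean was in cDC1 (77.1 CPM). The C9a.SII d3 tdT+ libraries were uneven, with 2201, 4555 and 4927 counts of Irf7. Each of the 40 pairs of neighbours in the order of Irf7 overlapped.

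Levels of list genes below are means of TMM-scaled CPM, the scaling of the fit. Their counts stand beside the shares of all genes called at day 9, which were 21.8% in PIB, 29.6% in PIP, 21.4% in C9a.SII and 19.2% in hCD2.SII. Of 12 binding partners, of which 10 or 11 could be tested, 3 rose and 0 fell in PIB at day 9 and 5 rose and 1 fell in PIP. Spi1 rose by 7.38 ± 0.23 and Batf3 by 6.66 ± 0.36 in PIB, both delivered there. In PIP Spi1 rose by 8.25 ± 0.09, and Ikzf1, a lymphoid factor that was not delivered, rose by 6.93 ± 0.15 (adjusted p 9.06e-16). In C9a.SII 4 rose, Spib, delivered there, by 9.14 ± 0.38 and Batf by 3.40 ± 0.29, while Stat2 fell by 1.28 ± 0.10 (adjusted p 2.01e-06). In hCD2.SII 3 rose and 0 fell, Batf by 2.69 ± 0.44 (adjusted p 0.00255).

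Of 20 sensors, adaptors and kinases that act on the family, 19 were tested at day 9. In PIB 3 rose and 1 fell, in PIP 5 rose and 2 fell, in C9a.SII 2 rose and 4 fell, and in hCD2.SII 3 rose and 0 fell. The 4 of 19 called in PIB are near the 21.8% of all genes, and the 3 of 19 in hCD2.SII below the 19.2%, so that these counts show nothing about the sensors as a list. Tlr9, a sensor of DNA in endosomes, was at 0.111 CPM in C9a.MEF and reached 10.1 ± 1.1 CPM (SD, n = 5) in PIB, with a log2 change of 6.42 ± 0.32 (adjusted p 1.46e-09), and it rose in the other combinations too, by 4.05 ± 0.59 in PIP, 5.60 ± 0.47 in C9a.SII and 5.87 ± 0.55 in hCD2.SII. Tlr4 rose by 3.78 ± 0.09 in PIB and 3.06 ± 0.11 in PIP. Ddx58, which encodes the RNA sensor RIG-I and is interferon-stimulated, fell by 1.51 ± 0.06 in PIB, by 1.14 ± 0.05 in PIP and by 3.26 ± 0.09 in C9a.SII (adjusted p 1.43e-09). The median over the list was 0.34, 0.50, 0.19 and 0.25 in the order PIB, PIP, C9a.SII and hCD2.SII.

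Of 15 interferon receptors and transducers, 14 or 15 of them tested, 4 rose and 0 fell in PIB, 3 and 0 in PIP, 5 and 2 in C9a.SII and 4 and 0 in hCD2.SII. The 4 of 15 in PIB are close to the 21.8% of all genes and the 3 of 15 in PIP below the 29.6%. Ifngr2, a chain of the interferon gamma receptor, rose in all 4, by 1.81 ± 0.06, 1.31 ± 0.07, 1.38 ± 0.07 and 1.32 ± 0.10. Ifngr1 rose by 2.54 ± 0.06 in PIB (adjusted p 2.12e-12). Socs1, a feedback inhibitor of Jak kinases, rose by 1.72 ± 0.19 in C9a.SII and by 2.33 ± 0.32 in hCD2.SII, and Usp18, another, fell by 2.28 ± 0.17 in C9a.SII (adjusted p 1.23e-06).

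Of the 33 interferon-stimulated genes, all tested, more fell than rose under SII, except in hCD2.SII at day 9 with all its libraries. In C9a.SII 1 rose and 26 fell at day 9, with a median of -2.67, beside 21.4% of all genes. At day 3 1 rose and 25 fell, with a median of -2.08, beside 17.6% of all genes. In hCD2.SII 1 rose and 23 fell at day 3 (median -2.46), beside 24.1% of all genes. At day 9 2 rose and 2 fell with all 3 libraries (median -1.82), beside 19.2% of all genes, and 2 rose and 26 fell without replicate 1 (median -4.30). The share of 19.2% is that with all 3 libraries and is not the background of the 26. Its range with each library left out is given in the last section. The median of all genes was between -0.02 and 0.06 in these comparisons. Oasl2, an antiviral gene of the oligoadenylate synthetase family, fell by 5.80 ± 0.17 in C9a.SII, from 249 to 4.03 CPM (adjusted p 1.92e-09), and Ddx60 by 4.82 ± 0.22. Samhd1, a nucleotide hydrolase that limits retroviruses, rose by 2.80 ± 0.12. In C9a.SII the same comparison gave -0.86 for Irf7, -0.58 for Irf9 and -1.28 for Stat2.

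Under PIB and PIP the list was split. In PIB 5 rose and 14 fell at day 9 (median -0.66), and 6 rose and 10 fell at day 3 (median -0.15), beside 22.8% of all genes at day 3. In PIP 11 rose and 4 fell at day 9 (median 0.44). At day 3 11 rose and 7 fell (median 0.54), beside 21.8% of all genes with all libraries. Without the day 3 library low in leukocyte markers 15 rose and 7 fell (median 0.84). Mx1, an antiviral GTPase, rose by 4.23 ± 0.16 in PIP and by 2.00 ± 0.17 in PIB, and Ifit2 by 3.503 ± 0.08 and 1.92 ± 0.07. Cxcl10, a chemokine gene, fell in both, by 1.53 ± 0.12 and 2.75 ± 0.13, and Ifit3 fell by 1.83 ± 0.12 in PIP although Ifit2, of the same family, rose there. Between combinations at day 9, 22 of the 33 were lower in PIB than in PIP and 0 higher, beside 21.6% of all genes. In PIP 30 were higher than in C9a.SII and 1 lower, beside 22.5% of all genes.

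**Figure D4:**
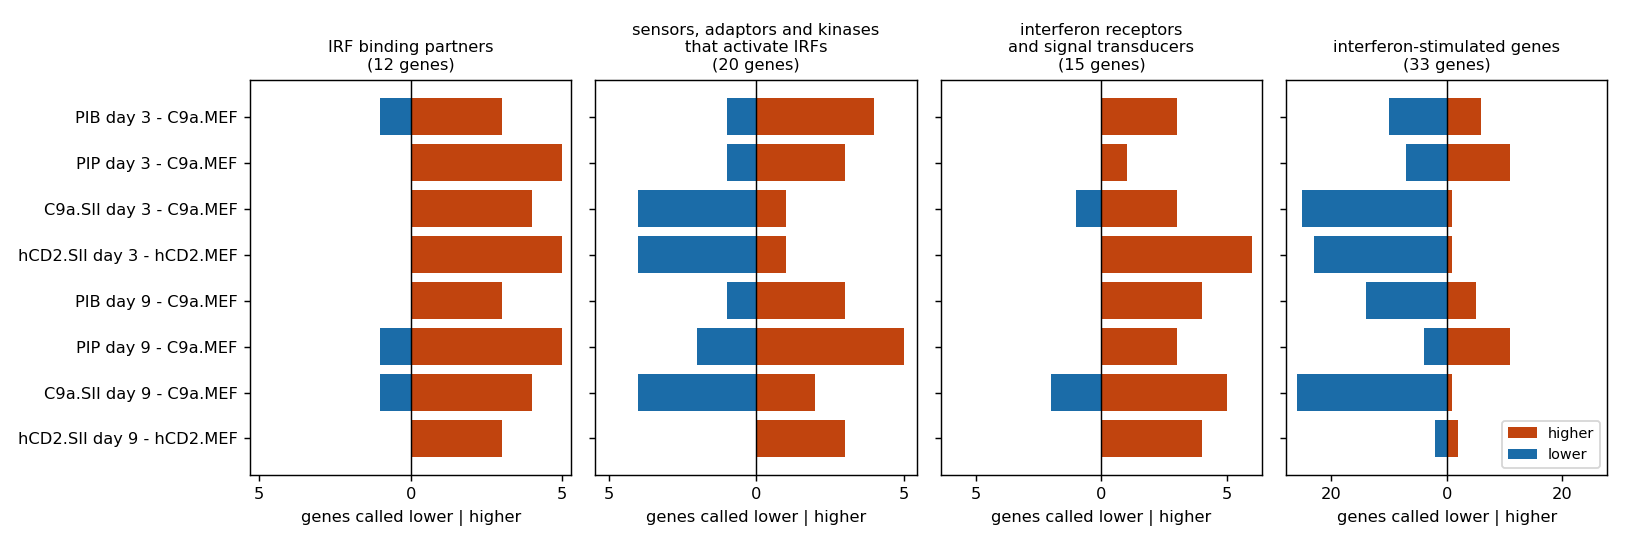
Number of genes of 4 lists (panels) called higher (right) or lower (left) in double positive cells than in fibroblasts, by combination and day (rows), at an adjusted p under 0.05 and at least 2-fold. Interferon-stimulated genes lie mostly to the left under SII, except in hCD2.SII at day 9, where 2 were lower with all 3 libraries.

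Of 9 interferon genes only Ifnb1, the target of Irf3 and Irf7, had enough counts for a test. It had 14.999, 19.7, 15.4 and 19.1 CPM in PIP double positive cells of day 9 and at most 0.276 CPM in C9a.MEF, with no overlap. Its log2 change was 6.95 ± 0.27 in PIP (adjusted p 4.77e-13) and 3.00 ± 0.56 in PIB (adjusted p 4.23e-04), where it had 0.773 to 2.23 CPM, and rests on at most 3 counts a fibroblast library. It was at 0 in cDC1 and at up to 0.150 CPM in cDC2, and pDC replicate 1 had 7.07 CPM against 0 to 0.123 in the other pDC libraries. Among 5 cofactors and regulators 0 rose in any combination at day 9, and 1 fell, Trim21 in C9a.SII, by 1.09 ± 0.13.

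The splenic subsets also differed in these lists. Of the interferon-stimulated genes 1 was higher and 20 lower in cDC1 than in cDC2 (median -1.35), beside 34.8% of all genes called. Oas2 was lower by 6.42 ± 0.29 and Rtp4 by 5.81 ± 0.29, and Mx1 was higher by 1.05 ± 0.10. In cDC2, where all 33 were tested, 17 were higher and 4 lower than in pDC, beside 34.9% of all genes (15 and 5 without pDC replicate 1). In cDC1 3 of 30 tested were higher and 6 lower than in pDC, beside 15.8% of all genes (3 and 9 without pDC replicate 1). The shares are those with all libraries. Of the sensors, Tlr3 was higher in cDC1 than in cDC2 by 4.15 ± 0.11, and Tlr7, a sensor of single-stranded RNA, lower by 8.30 ± 0.33 (adjusted p 6.59e-16), at 0.140 CPM in cDC1. In pDC the mean level of Tlr7 was 144.99 CPM. Spib was lower in cDC1 than in pDC by 7.67 ± 0.67 (adjusted p 1.37e-05), and Batf3 higher by 4.75 ± 0.61 (adjusted p 2.01e-04).

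Across the 41 group means of log2(CPM + 1), over 11437 genes, the pattern most like that of Irf7 was that of Pml (Spearman 0.88), followed by Stat2 (0.83) and Tapbp (0.80). Irf1 was closest to Slc12a9 (0.97), Nfkbie (0.97) and Gpr146 (0.95), Irf8 to Coro7 (0.95), Irf5 to Ntng2 (0.87), Irf4 to Zbtb46 (0.87), Irf2 to Clasp2 (0.86), Irf3 to Trmt2a (0.91) and Irf9 to Rars2 (0.85). Within the family the closest pair was Irf1 with Irf5 (0.67), then Irf2 with Irf5 (0.64) and Irf1 with Irf7 (0.58), and the most opposed was Irf8 with Irf9 (-0.44). The group means keep the 3 libraries that go against their label. In PIB d6 tdT+ that library had 539 CPM of Irf4 against a mean of 0.596 in the rest. In C9a.SII d6 tdT+ it had 658 CPM against 1.03. Groups share lines, days and transgenes, so these values describe the 41 groups and carry no test.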

How the data were processed

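RNA of sorted cells was made into stranded total RNA libraries with a pico-input kit, per the labels' protocols. The authors deposited 1 table of whole-number counts per Ensembl identifier. STAR 2.7.9a, Salmon 1.10.1 and mm10 are named per the submitters' processing notes. Which tool gave the counts, the annotation and the strand setting are not given in the sources used here. Of 57010 identifiers 52029 matched a symbol, and the rest held 5.98% to 32.1% of a library's counts. They were kept in the scaling, the tests and the shares of all genes called, and left out of the search for genes most like a member. Totals had a median of 10960122 per library, and no pair of libraries of a group agreed within sampling noise.

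CPM were computed over each library's total. Each of 27 comparisons and 2 interactions was fitted by edgeR 4.0.16 (R 4.3.3; quasi-likelihood test, TMM scaling, a filter on low counts, limma 3.58.1 loaded) on the groups compared, with p-values adjusted by Benjamini-Hochberg over all genes tested, and the fits were tested on simulated data. Called means an adjusted p under 0.05 and at least 2-fold. Alternatives were DESeq2 1.42.0 size factors, its Wald test, no filter, a replicate block, 1 fit over all groups, each library left out and, chosen after seeing the data, only libraries of at least 2000000 counts, levels without 3 libraries and list counts without libraries that stand apart. The members and lists were chosen with earlier results of these data known. All members are named in each comparison, and from each list, against fibroblasts and between splenic subsets, the 2 called genes with the largest rise and the 2 with the largest fall whose libraries do not overlap; some genes of these lists are not reported here. Of 21 sensors 20 matched a symbol. The labels do not say whether libraries with the same replicate number form a pair. Deviations from the group mean correlated above 0.1 in each of 3 such pairs only between hCD2.SII double positive cells of day 9 and hCD2.MEF (0.11 to 0.22). With so few pairs a comparison, these correlations cannot establish pairing there or exclude it elsewhere.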

Additional observations from a re-analysis of the deposited data

Results flagged for a closer look

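Libraries far from the others of their group were looked for in 264 combinations of a member and a group of 4 or more libraries, by the gap to the nearest library over the whole range. The rule marks about 1 in 20 groups by chance, and 32 were marked. Levels are CPM, and their causes were not tested. In C9a.MEF replicate 1 Irf3 was lowest at 17.7 (others 19.02 to 19.1). In C9a.SII d3 CD45+ replicate 5 Irf1 was lowest at 24.02 (others 38.4 to 43.9). In C9a.SII d3 tdT+CD45+ replicate 4 Irf9 was highest at 71.4 (others 39.9 to 43.7). In the library labelled C9a.SII d6 tdT+ replicate 5 Irf1 was highest at 106.7 (others 27.1 to 39.7) and Irf4 was highest at 658 (others 0.129 to 1.62). In C9a.SII d6 tdT+CD45+ replicate 4 Irf7 was highest at 203 (others 110.8 to 124.2). In C9a.SII d9 CD45+ replicate 1 Irf8 was lowest at 71.7 (others 156.03 to 168). In C9a.SII d9 tdT+ replicate 1 Irf5 was lowest at 49.5 (others 96.9 to 104.3) and Irf8 was lowest at 84.2 (others 154.02 to 160.99). In C9a.SII d9 tdT+CD45+ replicate 1 Irf2 was lowest at 18.3 (others 46.7 to 50.7). In the library labelled PIB d6 tdT+ replicate 4 Irf1 was highest at 219 (others 66.4 to 69.5), Irf4 was highest at 539 (others 0.298 to 0.891), Irf7 was highest at 406 (others 169 to 177) and Irf8 was lowest at 1.99 (others 105.998 to 110.3). In PIB d9 tdT+CD45+ replicate 5 Irf8 was highest at 272 (others 120.2 to 154.4). In the library labelled PIP d3 tdT+ replicate 5 Irf1 was lowest at 36.6 (others 191 to 216), Irf4 was lowest at 3.94 (others 622 to 701), Irf7 was lowest at 183 (others 445 to 483) and Irf8 was highest at 211 (others 0.704 to 2.07). In PIP d6 CD45+ replicate 4 Irf5 was lowest at 65.9 (others 96.1 to 104.6) and Irf8 was highest at 12.4 (others 2.02 to 3.16). In PIP d6 tdT+ replicate 4 Irf1 was lowest at 99.8 (others 210.1 to 217). In PIP d6 tdT+CD45+ replicate 4 Irf2 was highest at 64.5 (others 43.8 to 46.9). In hCD2.MEF replicate 3 Irf4 was highest at 0.618 (others 0.279 to 0.336). In hCD2.SII d3 YFP+ replicate 5 Irf1 was highest at 33.5 (others 24.8 to 26.8), Irf5 was highest at 63.2 (others 15.4 to 17.7), Irf7 was highest at 181 (others 93.3 to 108.7) and Irf8 was highest at 330.3 (others 67.5 to 81.2). In hCD2.SII d3 YFP+CD45+ replicate 1 Irf4 was highest at 1.07 (others 0.410 to 0.487). In hCD2.SII d6 CD45+ replicate 4 Irf9 was lowest at 32.7 (others 57.2 to 60.7). In hCD2.SII d6 YFP+ replicate 4 Irf5 was highest at 77.9 (others 11.4 to 17.01) and Irf8 was highest at 197 (others 34.9 to 39.3). The 3 libraries named as labelled are those with under 5 CPM of an IRF in their label.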

How the results depend on the processing

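Of the 59 called member changes, 49 kept their call under every alternative run. Over all alternatives, 2957 member values kept direction and side of the threshold, 35 lost the call, 39 gained it and 1 reversed. The reversed value is Irf5 between cDC1 and cDC2, at 0.38 and, in 1 fit over all groups, at -0.066. The causes were not tested. The share of tested genes called is given where the number called moved by over 1.5 times, with the value as designed in brackets at first mention. Without the low-count filter, which leaves more genes to test, it was 25.005% for C9a.SII against pDC (38.2%), 0.471% for the C9a.SII gate (0.148%), 0.291% for C9a.SII over days (0.103%), 41.2% for PIB against cDC1 (57.5%), 7.05% for PIB over days (12.1%), 0.339% for the PIP gate (0.0122%), 3.40% for PIP over days (6.21%), 23.8% between cDC1 and cDC2 (34.8%), 1.74% between fibroblast lines (2.93%) and 4.69% for hCD2.SII over days (6.55%), with 2 members called between PIB and C9a.SII and 1 for the PIP gate (0 in both as designed). Libraries of at least 2000000 counts gave 48.4% for C9a.SII against pDC, 0.237% for the C9a.SII gate, 0.717% for C9a.SII over days and 1.09% for the line difference (0.568%), and 5 members (3) for hCD2.SII against pDC. In 1 fit over all groups it was 45.6% for C9a.SII against pDC, 0.905% for the C9a.SII gate, 1.59% for C9a.SII over days, 0.443% for the PIB gate (1.70%), 1.89% for PIP over days, 2.59% for PIP minus PIB (10.6%), 32.8% between cDC1 and cDC2, 16.5% between cDC1 and pDC (15.8%), 43.6% between cDC2 and pDC (34.9%), 0.0696% between fibroblast lines, 39.2% for hCD2.SII against pDC (32.95%) and 5.78% for hCD2.SII over days, with 1 member between PIB and C9a.SII. DESeq2's Wald test gave 0.770% for the C9a.SII gate, 1.36% for C9a.SII over days, 0.408% for the PIP gate and 1.47% for the line difference. Members with their highest mean in spleen numbered 5 with TMM-scaled CPM and 5 without the 3 libraries that go against their label, against 6 as designed.

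Leaving out each library in turn, the share ranged from 0.0309 to 0.237% for the C9a.SII gate, 0 to 1.56% for C9a.SII over days, 1.08 to 2.31% for the PIB gate, 0.00590 to 0.221% for the PIP gate, 3.92 to 7.05% for PIP over days, 6.08 to 12.8% for PIP minus PIB, 8.61 to 21.9% between cDC1 and pDC, 15.8 to 40.3% between cDC2 and pDC, 2.08 to 4.61% between fibroblast lines, 13.6 to 32.9% for hCD2.SII of day 9 against hCD2.MEF, 20.4 to 40.9% for hCD2.SII against pDC, 6.83 to 28.7% for the hCD2.SII gate, 3.35 to 15.7% for hCD2.SII over days and 0.259 to 4.26% for the line difference. Members called ranged from 0 to 1 between PIB and C9a.SII, for PIP minus PIB and between lines, 1 to 3 between cDC1 and pDC, 2 to 5 between cDC2 and pDC, 3 to 5 for hCD2.SII against pDC and 0 to 2 for hCD2.SII over days.

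With the replicate number as a block, hCD2.SII of day 9 against hCD2.MEF called 16.5% of genes (19.2% without the block) and 2 members in both fits. It is the comparison in which deviations correlated above 0.1 in every pair of equal number. Elsewhere whether equal numbers pair the libraries is not known, and the replicate block gave 0.0385% for the C9a.SII gate, 0.0129% for C9a.SII over days, 0.00610% for the PIP gate, 3.36% for PIP over days, 4.07% for the hCD2.SII gate (12.2%) and 2.87% for hCD2.SII over days. Depth limits the low members, since a count of 0 allows up to 2.62 CPM in the shallowest library, and Irf4 and Irf8 in fibroblasts rest on 1 to 17 counts.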
